A study of Homo sapiens with 6 samples.

Results

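The Notch pathway genes described here are 3 receptors (NOTCH1, NOTCH2 and NOTCH3), 3 ligands (JAG1, JAG2 and DLL4) and 4 HEY and HES target genes (HEY1, HEY2, HEYL and HES1). They were followed through every probe set that the array's annotation gives to exactly 1 of these genes, 33 probe sets of the 44988 that carry a single gene symbol. The cells were LX-2, an immortalised human line derived from hepatic stellate cells, the liver cells that lay down matrix in fibrosis. All 6 samples were kept for 12 h without serum. Then 3 received recombinant human BMP9 at 50 ng/ml for 24 h (BMP9) and 3 received 0 ng/ml for the same 24 h (control). Each sample was hybridised to 1 Affymetrix array. The samples are labelled biological replicates of 1 cell line with nothing said of separate cultures, so p-values measure only the spread between these samples, and 3 arrays a group limit the precision.

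Notch receptors are cut after they bind a Jagged or Delta ligand on a neighbouring cell. The freed intracellular part enters the nucleus and joins the DNA-binding protein RBPJ, which then activates HES and HEY genes. Those genes encode basic helix-loop-helix repressors. BMP9, the product of GDF2, signals through ACVRL1 and SMAD1/5/9, and in endothelial cells HEY1 and HEY2 are known to respond to both pathways. In the liver, JAG1 and NOTCH2 are known for their role in bile duct formation, and NOTCH3 is a receptor of mural cells such as pericytes, and stellate cells are the pericytes of the liver sinusoid.

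None of the 33 Notch probe sets passed the test between BMP9 and control. Across all 44988 single-gene probe sets, 196 passed (limma adjusted p under 0.05), which is 0.436%. At an unadjusted limma p under 0.05, 4 of the 33 stood out, those being 1 probe set each of HES1, NOTCH2, HEY1 and NOTCH3, against 11.4% of all probe sets. The groups did not overlap in 4 of the 33, against 17.3% of all probe sets. Each count is 12.1% of the 33, near the first background and below the second. The 33 differences (BMP9 minus control, log2) ran from -0.18 to 0.39 with a median of 0.039, and the median over all probe sets was 0.0073. Of the 33, 22 were positive, or 66.7%, against 52.4% of all probe sets.

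The 95% interval of the difference lay within a change of 1.5-fold in either direction in 32 of the 33 probe sets. The same held for 43973 of all 44988 probe sets, so this count does not set the Notch genes apart. The exception among the 33 was a HEY1 probe set. RMA compresses the differences of dim probe sets, so these bounds hold for the array values and not for transcript copies. Fewer cells that express a gene and less RNA per cell cannot be told apart in such bulk samples.

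**Figure D1:**
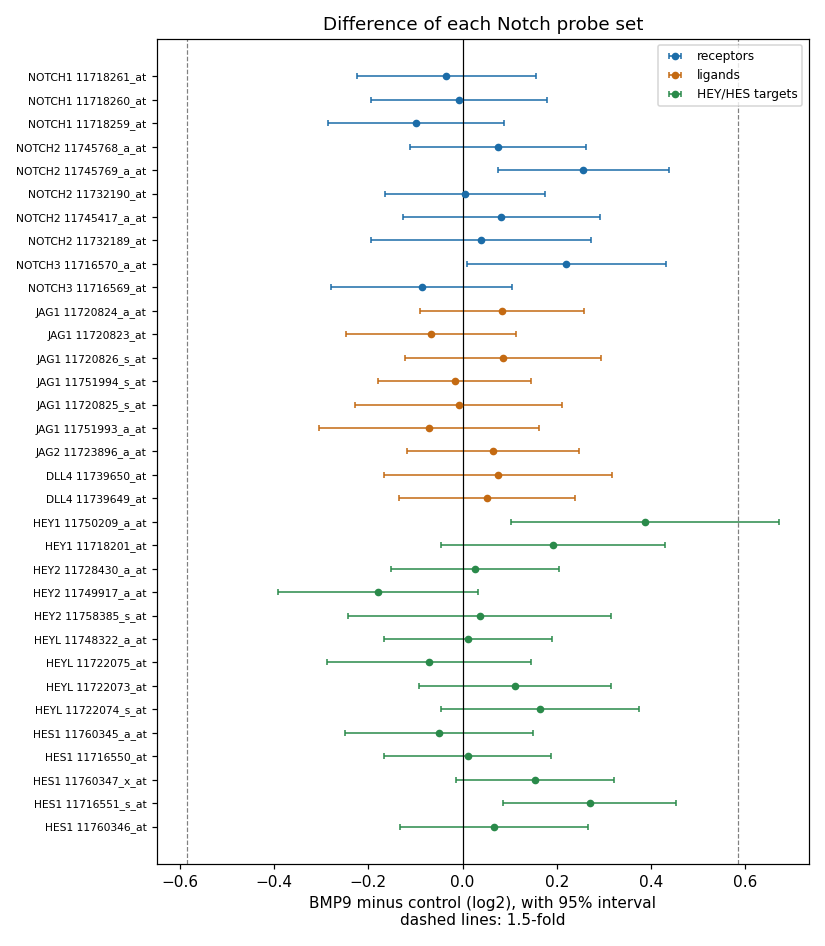
Each point is the difference of 1 probe set (BMP9 minus control, log2 RMA value) with limma's 95% interval, coloured by role, and the dashed lines mark a 1.5-fold change. The intervals of 32 of 33 probe sets lie between the dashed lines, and 1 HEY1 interval reaches past the right one.

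The arrays had median log2 values of 3.55 to 3.57 over the whole table, and Pearson's r across the single-gene probe sets was 0.990 to 0.994 between any 2 arrays. Markers were read in the brightest probe set of each gene. Of 17 stellate cell markers, 8 had a mean log2 value of at least 6. So had 2 of 14 endothelial, 1 of 9 cholangiocyte, 0 of 9 hepatocyte and 1 of 9 macrophage and leukocyte markers. Under 4 lay 2 stellate (ACTA2 and LUM), 5 endothelial, 4 cholangiocyte, 4 hepatocyte and 5 macrophage and leukocyte markers. These counts describe the values and do not settle the labelled cell type, since the 5 probe sets of COL1A1 alone averaged between 3.18 and 9.76. The stellate markers averaged 5.98 to 6.04 on the BMP9 arrays and 6.09 to 6.24 on the control arrays. Among them 0 rose and 2 fell in the brightest probe set, against 0.546% of all 18132 genes called there. COL3A1, a fibrillar collagen gene, fell by 1.29 and PDGFRA, a growth factor receptor gene, by 1.03 on the log2 scale (limma adjusted p = 2.53e-05 and 0.0119). Other COL3A1 probe sets differed by -1.30 and -1.17, which passed, and by -0.0096 and -0.070, which did not. The other PDGFRA probe sets differed by 0.20, 0.21 and 0.015, the opposite sign, and did not pass. The part of these genes in the Notch values was not tested. The 14 endothelial markers, which include the cells best known for DLL4 and HEY2, averaged 4.69 to 4.72 on the BMP9 arrays and 4.63 to 4.72 on the control arrays, and 0 of them passed. Cholangiocyte markers averaged 4.15 to 4.27 with BMP9 and 4.14 to 4.21 in control over 9 measured genes, also with 0 past the threshold. The table holds no detection calls. The array's background probe sets, grouped by the number of G and C bases in the probe, ran from 1.66 at 3 such bases to 3.48 at 16 and 10.1 at 25 on the BMP9 arrays, against 1.68, 3.47 and 9.90 on the control arrays. The base content of the Notch probes is not used here, so none of their probe sets is known to lie above background. Levels of different Notch probe sets serve to name the brightest of each gene and to apply minimum levels. They are not used to rank the Notch genes.

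Among the receptors, 10 probe sets were measured, 6 with a positive and 4 with a negative difference, and their median difference was 0.022. NOTCH1, the receptor best known from T cells and endothelium, read 5.06, 4.96 and 5.19 on the BMP9 arrays, against 5.04, 5.10 and 5.16 on the control arrays in its brightest probe set, the one with the highest mean over the 6 arrays. The groups overlapped, with the highest and the lowest of the 6 values both on BMP9 arrays. The difference was -0.035 (SE 0.086), with a 95% interval of -0.22 to 0.15 (limma adjusted p = 0.912). The other NOTCH1 probe sets differed by -0.007 and -0.10, and neither passed.

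NOTCH2, the receptor known from bile duct development, had 5 probe sets, all with a positive difference between 0.0057 and 0.26. The brightest (11745768_a_at) read 6.67, 6.66 and 6.51 on the BMP9 arrays, against 6.52, 6.63 and 6.46 on the control arrays. The BMP9 and control values were interleaved there, and the difference was 0.076 (SE 0.085) (limma adjusted p = 0.78). A second NOTCH2 probe set (11745769_a_at) read 4.02, 4.10 and 4.21 on the BMP9 arrays, against 3.81, 3.90 and 3.85 on the control arrays. All 3 BMP9 values lay above all 3 control values in it. Its difference of 0.26 (SE 0.082), or 1.19-fold, 95% interval 1.05 to 1.35, did not pass (limma adjusted p = 0.27). Another 4 probe sets name NOTCH2 together with its NOTCH2NL paralogs and NBPF genes and were kept out. In a fit over all 49395 probe sets they differed by -0.16 to 0.25, with limma adjusted p between 0.356 and 0.857.

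NOTCH3, a receptor of pericytes and vascular smooth muscle, read 7.31, 7.49 and 7.58 on the BMP9 arrays, against 7.35, 7.25 and 7.13 on the control arrays in its brightest probe set. BMP9 replicate 1 fell within the control range and the other BMP9 arrays lay above it. The means were 7.46 ± 0.14 with BMP9 and 7.24 ± 0.11 in control (SD, n = 3 arrays each). The difference was 0.22 (SE 0.096), or 1.16-fold, 95% interval 1.01 to 1.35, and did not pass (limma adjusted p = 0.417). With testing limited to probe sets with a mean of at least 7, its adjusted p was 0.0704, the lowest of its alternatives on the deposited scale. The other NOTCH3 probe set differed by -0.087, the opposite sign (limma adjusted p = 0.752).

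The ligands had 9 probe sets, 5 with a positive and 4 with a negative difference, and their median was 0.052. None reached an unadjusted limma p under 0.05, against 11.4% of all probe sets, and in none were the groups apart, against 17.3%. With only 9 probe sets, these counts do not set the ligands apart. JAG1, the Jagged ligand whose loss of function causes Alagille syndrome, read 6.41, 6.40 and 6.31 on the BMP9 arrays, against 6.29, 6.35 and 6.22 on the control arrays in its brightest probe set. BMP9 replicate 3 lay among the control values and the other 2 BMP9 arrays above them. The difference was 0.084 (SE 0.078), with a 95% interval of -0.089 to 0.26 (limma adjusted p = 0.731). The other 5 JAG1 probe sets differed by -0.072 to 0.086.

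JAG2, the second Jagged ligand, has 1 probe set, which read 6.06, 6.19 and 6.25 on the BMP9 arrays, against 6.15, 6.08 and 6.08 on the control arrays. BMP9 replicate 1 was the lowest of all 6 arrays and BMP9 replicate 3 the highest. The difference was 0.064 (SE 0.082) (limma adjusted p = 0.811). DLL4, the Delta ligand of sprouting endothelium, read 5.28, 4.94 and 4.87 on the BMP9 arrays, against 4.94, 4.89 and 5.04 on the control arrays in its brighter probe set. BMP9 replicate 1 alone stood above the control arrays and BMP9 replicate 3 was the lowest of the 6. That difference was 0.075 (SE 0.11) and that of the other DLL4 probe set 0.052 (SE 0.084), with limma adjusted p of 0.841 and 0.859.

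**Figure D2:**
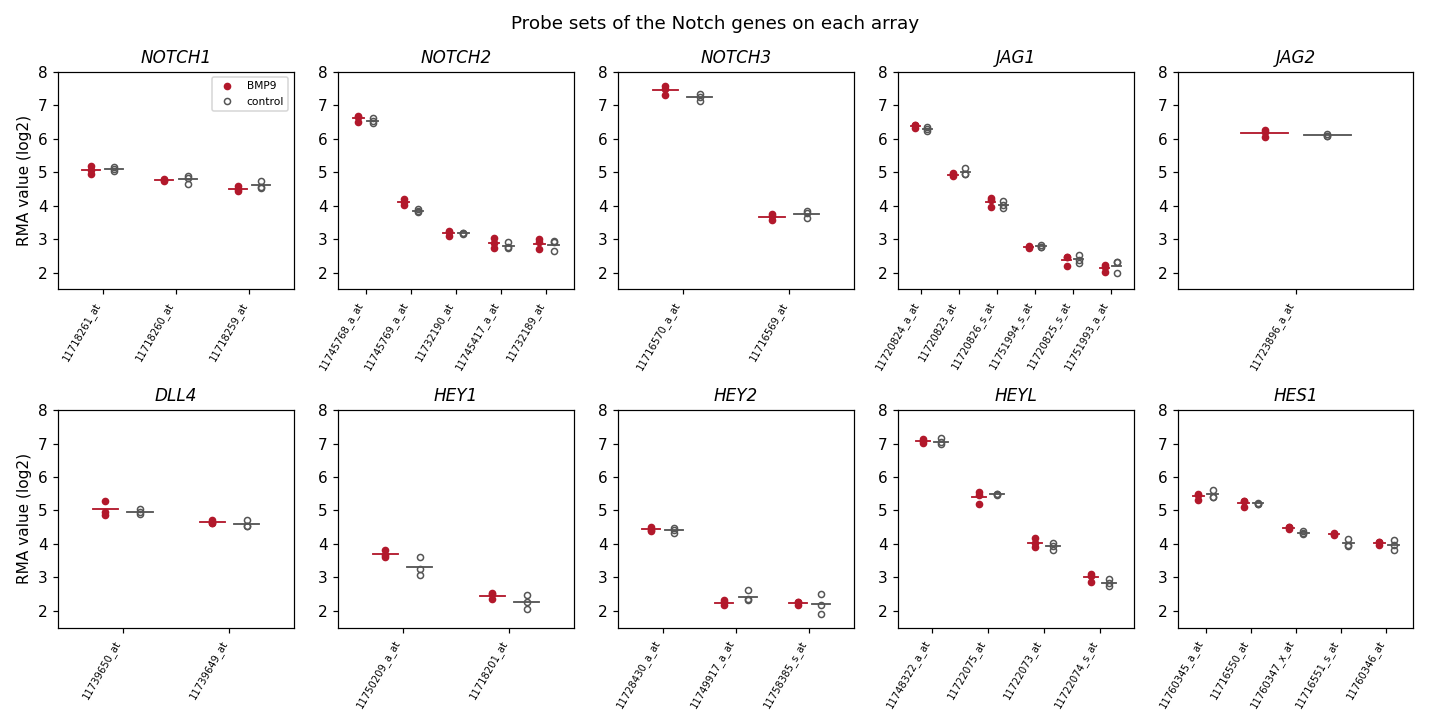
Each panel shows the probe sets of 1 gene, with the log2 RMA value of each BMP9 array (filled, left) and each control array (open, right) and a bar at each group's mean. The 2 groups overlap in 29 of 33 probe sets, and the 3 BMP9 values lie above the 3 control values in 1 NOTCH2 and 2 HES1 probe sets.

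HEY and HES genes are where Notch signalling is usually read out, and the bases just before the start sites of HES1, HEYL and HEY2 are shown for that reason. The sequences are those of RefSeq on GRCh38.p14, and each covers the 250 bases before the annotated start, 5′ to 3′ on the gene's strand. Windows were taken for 9 of the 10 genes. HEY1 was left out by a filter on its chromosome, so its window was not searched for the motifs. Capitals mark the RBPJ core TGGGAA or its reverse complement TTCCCA, and the GC-rich SMAD1/5 motif GGCGCC, which reads the same on both strands. No marked motif overlaps another. HES1 lies at chr3:194135898-194136147 on the + strand, HEYL at chr1:39639644-39639893 on the - strand and HEY2 at chr6:125749382-125749631 on the + strand.
HES1: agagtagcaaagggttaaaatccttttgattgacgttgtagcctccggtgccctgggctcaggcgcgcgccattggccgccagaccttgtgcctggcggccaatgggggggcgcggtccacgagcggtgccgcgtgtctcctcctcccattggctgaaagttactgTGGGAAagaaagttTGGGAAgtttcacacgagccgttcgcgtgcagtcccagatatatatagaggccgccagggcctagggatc
HEYL: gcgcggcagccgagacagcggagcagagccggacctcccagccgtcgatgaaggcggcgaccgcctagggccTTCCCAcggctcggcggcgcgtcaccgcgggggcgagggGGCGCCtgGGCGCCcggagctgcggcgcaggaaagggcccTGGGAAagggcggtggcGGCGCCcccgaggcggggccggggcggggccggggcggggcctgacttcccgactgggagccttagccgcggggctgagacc
HEY2: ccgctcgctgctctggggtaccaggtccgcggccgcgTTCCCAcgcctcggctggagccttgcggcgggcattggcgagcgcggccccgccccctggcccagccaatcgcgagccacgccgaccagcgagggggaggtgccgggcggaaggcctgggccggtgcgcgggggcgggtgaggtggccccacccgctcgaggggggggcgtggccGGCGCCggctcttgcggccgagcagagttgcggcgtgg

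The HES1 window holds the RBPJ core 2 times on the gene's strand, at bases 84 to 79 and 70 to 65 before the start, and GGCGCC 0 times. HEYL holds the RBPJ core 2 times, once on each strand, and GGCGCC 3 times, and HEY2 holds each motif 1 time. Of the 9 windows taken, HEY1 not among them, 3 hold TGGGAA on either strand and 4 hold GGCGCC. The others with GGCGCC are NOTCH1 and JAG2. Among 35116 RefSeq windows of the same length, 20.8% hold TGGGAA and 16.4% hold GGCGCC. These are matches of letters and not measured sites.

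Of the 14 target probe sets, 11 had a positive and 3 a negative difference, with a median of 0.052. HEY1, a repressor known as a target of both Notch and BMP9, gave the largest difference among the 33. Its brighter probe set (11750209_a_at) read 3.59, 3.68 and 3.82 on the BMP9 arrays, against 3.24, 3.62 and 3.07 on the control arrays. Control replicate 2 lay above BMP9 replicate 1, and the other 2 control arrays lay below all BMP9 arrays. The means were 3.70 ± 0.11 with BMP9 and 3.31 ± 0.28 in control (SD, n = 3 arrays each), a difference of 0.39 (SE 0.13), or 1.31-fold, 95% interval 1.07 to 1.59, which did not pass (limma adjusted p = 0.288). Over 13 alternatives on the deposited scale the difference ran from 0.27 to 0.54 and limma adjusted p from 0.0918 to 0.574, and 0 passed. The largest difference, 0.54, came without control replicate 2, the control array that lay among the BMP9 values. The second HEY1 probe set read 2.53, 2.35 and 2.49 on the BMP9 arrays, against 2.27, 2.47 and 2.06 on the control arrays. Control replicate 2 again lay within the BMP9 range, and the difference of 0.19 (SE 0.11) did not pass (limma adjusted p = 0.537). Averaged over both probe sets, HEY1 differed by 0.29 (SE 0.11, limma adjusted p = 0.345 over 18132 genes).

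HES1, the classical Notch target, had 5 probe sets that did not move alike. The brightest (11760345_a_at) read 5.33, 5.47 and 5.49 on the BMP9 arrays, against 5.62, 5.41 and 5.41 on the control arrays. Its highest value was on a control array and its lowest on a BMP9 array, and the difference was -0.050 (SE 0.091) (limma adjusted p = 0.874). A dimmer one (11716551_s_at) had the smallest p of all 33 and read 4.32, 4.28 and 4.28 on the BMP9 arrays, against 3.98, 4.15 and 3.94 on the control arrays. All 3 BMP9 values exceeded all 3 control values. That difference was 0.27 (SE 0.083), or 1.21-fold, 95% interval 1.06 to 1.37, and did not pass (limma adjusted p = 0.254). Its ID marks probes shared with other transcripts. Another probe set with such a mark (11760347_x_at) read 4.50, 4.45 and 4.49 on the BMP9 arrays, against 4.39, 4.28 and 4.32 on the control arrays, also without overlap, and differed by 0.15 (SE 0.076) (limma adjusted p = 0.476). The other 2, whose IDs carry no such mark, differed by 0.011 and 0.066. The mean over the 5 differed by 0.090 (SE 0.052, limma adjusted p = 0.523 over 18132 genes).

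HEYL, a repressor expressed in smooth muscle and mural cells, read 7.13, 7.02 and 7.07 on the BMP9 arrays, against 7.03, 7.15 and 6.99 on the control arrays in the brightest of its 4 probe sets. The BMP9 values lay inside the control range. The difference was 0.012 (SE 0.081), with a 95% interval of -0.17 to 0.19 (limma adjusted p = 0.971), and the other 3 differed by -0.071, 0.11 and 0.16. HEY2, a repressor of arterial endothelium and heart, read 4.41, 4.38 and 4.51 on the BMP9 arrays, against 4.33, 4.48 and 4.41 on the control arrays in its brightest probe set. The groups overlapped there, and the difference was 0.026 (SE 0.081) (limma adjusted p = 0.932). A dimmer HEY2 probe set (11749917_a_at) read 2.16, 2.26 and 2.32 on the BMP9 arrays, against 2.35, 2.61 and 2.32 on the control arrays. There all 3 BMP9 values were below all 3 control values, the only such case among the 33. The groups nearly touched, with BMP9 replicate 3 at 2.316 and control replicate 3 at 2.319. The difference of -0.18 (SE 0.096) did not pass (limma adjusted p = 0.515).

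The usual BMP-SMAD target genes show the size of a response on the same arrays. SMAD6, an inhibitory SMAD, read 9.07, 8.92 and 8.96 on the BMP9 arrays, against 5.80, 6.14 and 5.98 on the control arrays. The groups were far apart, and SMAD6 rose by 3.01 (SE 0.099), or 8.07-fold, 95% interval 6.94 to 9.39 (limma adjusted p = 2.10e-07). Of 6 such genes (ID1 to ID4, SMAD6 and SMAD7), 3 rose and 0 fell in the brightest probe set, against 0.546% of all 18132 genes called in that probe set. ID3, an inhibitor of basic helix-loop-helix factors, rose by 1.63 (SE 0.12) and ID4 by 0.99 (SE 0.095) (limma adjusted p = 7.94e-05 and 0.00105). Not every probe set of these genes passed: 2 of 3 did for SMAD6, 2 of 3 for ID3 and 1 of 4 for ID4. The IDs of the ID3 and ID4 probe sets given above mark shared probes, as does that of the brightest ID1 probe set. The other ID3 probe set that passed has no such mark. The brightest ID1 probe set differed by 0.14 and did not pass, while another ID1 probe set rose by 3.21 (SE 0.18), with group means of 6.01 ± 0.22 with BMP9 and 2.80 ± 0.42 in control (SD, n = 3, limma adjusted p = 1.55e-05).

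**Figure D3:**
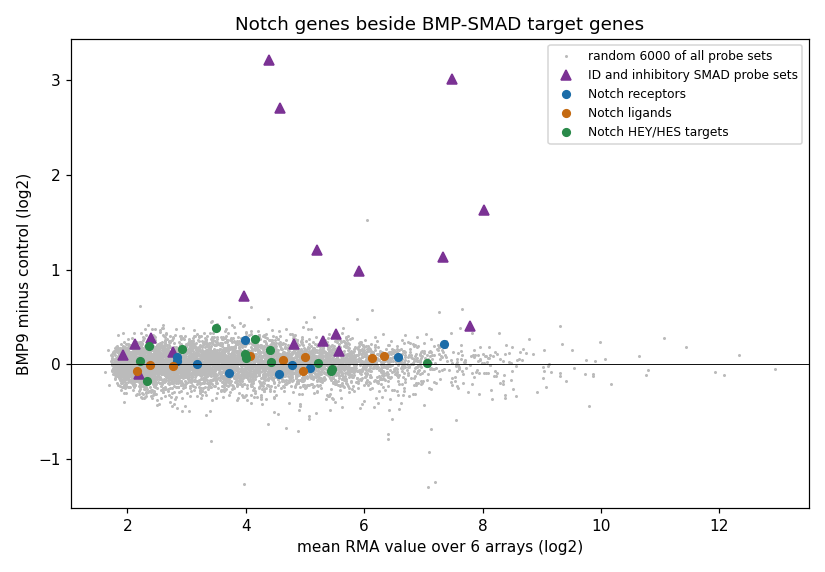
Mean log2 RMA value over the 6 arrays (x) against the difference BMP9 minus control (y, log2) for the 33 Notch probe sets by role, the 18 ID and inhibitory SMAD probe sets, and 6000 probe sets drawn at random from the 44988. The Notch probe sets stay between -0.18 and 0.39, and the ID and SMAD probe sets reach 3.21.

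The rest of the pathway was followed through 6 lists of 78 genes, of which 74 were measured and 4 were not analysed here. In the brightest probe set of each gene, 1 of the 74 rose and 0 fell, against 0.546% of all 18132 genes called there. The median difference was 0.020, against 0.014 over all 18132 genes. The riser was EFNB2, which encodes the arterial ligand ephrin-B2 and is counted among Notch targets. It read 10.36, 10.33 and 10.35 on the BMP9 arrays, against 9.93, 9.88 and 9.83 on the control arrays. The groups did not overlap, and EFNB2 rose by 0.47 (SE 0.075) (limma adjusted p = 0.0254). Its other 3 probe sets differed by 0.046, -0.14 and 0.043 and did not pass. The call was lost whichever array was left out (limma adjusted p 0.0739 to 0.120) and when a gene's probe sets were averaged.

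The other lists held no probe set past the threshold, against 0.436% of all 44988 probe sets. The genes named are the 3 with the smallest p in the brightest probe set. Among 10 other receptors and ligands, CNTN1, a contactin that can bind Notch, differed by 0.28, the non-canonical ligand gene DLK2 by 0.12 and EGFL7, a secreted endothelial protein that binds Notch, by -0.10. DLK1, a related ligand gene named after its values were seen, had smaller p in 2 dimmer probe sets, which differed by 0.37 and 0.33 without overlap of the groups (limma adjusted p = 0.136 and 0.159), while its brightest differed by -0.13. Among 5 genes of receptor glycosylation, the Fringe genes LFNG and RFNG, whose enzymes set which ligand a receptor prefers, differed by 0.11 and 0.10, and the glucosyltransferase gene POGLUT1 by 0.059. Among 14 genes of endocytosis and turnover, the kinase gene AAK1 differed by 0.30, and the ubiquitin ligase genes MIB1 and NEURL1B, which act on the ligands, by -0.23 and -0.18. Limma adjusted p for the 9 genes other than DLK1 ran from 0.343 to 0.845.

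Receptor cleavage was represented by 8 measured genes. FURIN, whose protease makes the first cut, differed by 0.21, ADAM10, which makes the ligand-dependent cut, by 0.14, and the gamma-secretase subunit gene NCSTN by -0.063. In the nuclear complex, with 19 measured genes, the acetyltransferase genes KAT2B and EP300 differed by -0.47 and -0.39, with limma adjusted p of 0.105 and 0.13, and the corepressor gene TLE1 by 0.31. Of 18 other HES and Notch target genes, SNAI2, which encodes the repressor Slug, differed by 0.29 and BHLHE41, a circadian repressor gene, by -0.31, neither past the threshold.

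**Figure D4:**
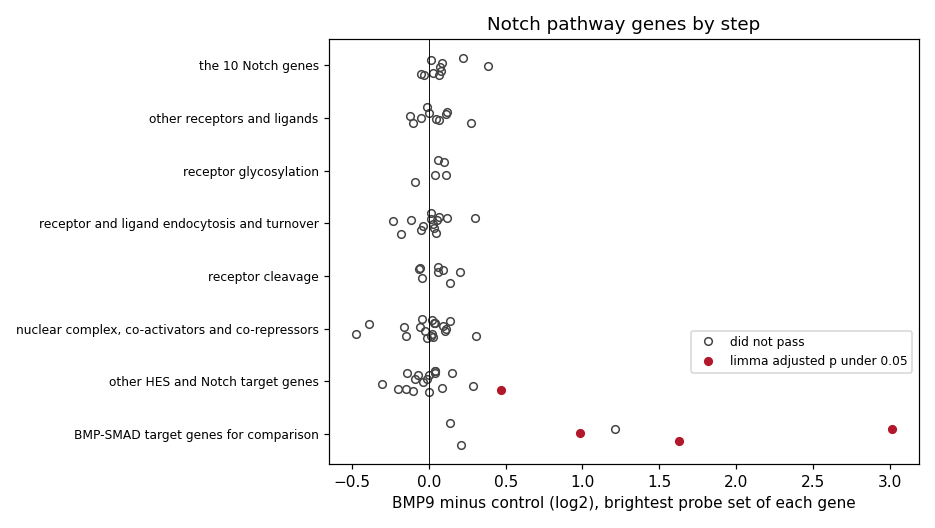
Difference BMP9 minus control (log2) in the brightest probe set of each gene, by pathway step, with genes past a limma adjusted p of 0.05 filled. The 10 Notch genes lie between -0.050 and 0.39, EFNB2 at 0.47 is the filled point among the other target genes, and SMAD6, ID3 and ID4 are filled in the comparison list.

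The spiked controls of the array gave lower values in the BMP9 samples, so scaling to them moves every probe set upwards. The 18 hybridisation control probe sets averaged 9.87 to 10.04 on the BMP9 arrays and 10.12 to 10.20 on the control arrays, and the 24 poly-A control probe sets averaged 5.39 to 5.83 on the BMP9 arrays and 6.09 to 6.22 on the control arrays. With arrays scaled to the hybridisation controls, the median of all probe sets became 0.22 and that of the 33 Notch probe sets 0.25. Then 8 of the 33 were called higher, against 21.3% of all probe sets. These were both HEY1 probe sets and 2 each of HES1 and HEYL, and 1 each of NOTCH2 and NOTCH3. With scaling to the poly-A controls, the medians were 0.54 and 0.57, and 33 of 33 were called higher, against 92.8% of all probe sets. The 11 negative Notch differences turned positive under both scalings. With hybridisation scaling KAT2B, EP300, BHLHE41 and MIB1 still differed by -0.26, -0.18, -0.095 and -0.019, and with poly-A scaling by 0.059, 0.14, 0.23 and 0.30, none of them past the threshold. Which scale is nearer to RNA per cell was not tested.

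The HES1 probe set with the smallest p (11716551_s_at) was compared with the brightest probe sets of 3387 other genes whose group mean reached 6 (log2) in at least 1 group. Its values over the 6 arrays were most like those of FGFR2, a fibroblast growth factor receptor gene, with Pearson's r = 0.989, followed by JTB (0.989), ANXA11 (0.983), TLCD3A (0.981) and SPNS1 (0.977). This HES1 probe set was picked for its difference between the groups, so likeness to genes that also differ follows in part from that choice. FGFR2, with means of 6.18 with BMP9 and 5.36 in control, and ANXA11, with 6.28 and 5.97, entered the comparison through their BMP9 mean alone. With 6 values and so many genes high correlations arise readily. FGFR2 rose by 0.82 (limma adjusted p = 0.0213), and the other 4 differed by 0.18 to 0.32 and did not pass.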

How the data were processed

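RNA of 6 LX-2 samples, 3 per group, was hybridised to Affymetrix arrays, 1 per sample, after a 3′ amplification with biotin label, per the labels' protocols. The authors deposited 1 value per probe set, made with RMA, per the submitters' processing notes. Which program ran it, and with what options, was not stated there. The deposited values were read as log2, a base taken from their range and from how RMA is usually run. RMA makes the arrays' distributions alike, which takes out most of any shift common to all transcripts.

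Of 49395 probe sets, 102 array controls, 1832 with several symbols and 2473 with none were left out. The other 44988 were each fitted in limma 3.58.1 under R 4.3.3 (lmFit and eBayes, constant prior with 6.71 degrees of freedom beside 4 residual ones, no covariate), with Benjamini-Hochberg adjustment over all of them and a threshold of 0.05. Dim probe sets were kept. A difference is BMP9 minus control, and SE is the moderated standard error from limma. The fit was tested on simulated data.

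The members, lists and tests were chosen with earlier results of these data known. Named genes are the 10 members, list genes with a probe set past the threshold, the 3 of smallest p per list, and the 5 most like the member probe set of smallest p. Figures were drawn with matplotlib 3.10.9.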

Additional observations from a re-analysis of the deposited data

How the results depend on the processing

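No Notch probe set passed under 16 of 18 alternatives, which were the replicate block, 2 normalisations, 2 minimum levels, 2 ways to represent a gene by 1 value, no shared probes, all 49395 probe sets, an intensity trend with a robust prior, and each array left out. The exceptions were the control scalings, with 8 called under hybridisation and 33 under poly-A scaling. Some alternatives tested fewer than 33: 9 at a minimum level of 5, 2 at 7, 10 with the brightest and 26 without shared probes. The HES1 probe set of smallest p and both HEY1 probe sets lay under both minimum levels and were not tested there. Outside the control scalings up to 6 of the 33 differences, none of them called, turned sign under a single alternative. Under poly-A scaling 14 differences, among the probe sets of the members and the other genes chosen by rule, that were negative and uncalled on the deposited scale were called higher: NOTCH1 at 0.50, 0.53 and 0.43, NOTCH3 at 0.45, JAG1 at 0.47, 0.52, 0.52 and 0.46, HEY2 at 0.35, HEYL at 0.46, HES1 at 0.48, EGFL7 at 0.43, NEURL1B at 0.35 and NCSTN at 0.47. That scaling adds 1 shift to every probe set.

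The count of all probe sets called was 196. It was 9703 (9566 higher, 137 lower) with hybridisation and 41797 (41768 higher, 29 lower) with poly-A scaling, against 60 higher and 136 lower on the deposited scale. It was 426 and 354 at minimum levels of 5 and 7, 124 with the brightest and 87 with the mean of a gene's probe sets, 128 without shared probes (fewer features were tested in these), 405 with the trend and robust prior, and 81 to 129 with 1 array left out. The count of other Notch pathway genes was 13 and 69 under the control scalings, 2 at a minimum of 7 (EFNB2 and, lower by 0.16, the corepressor gene CTBP1, named after its value was seen), and 0 with averaged probe sets or any array left out (0 to 0). The replicate block left 0 of these genes, with EFNB2 at an adjusted p of 0.0726, and 151 of all probe sets. Same-numbered arrays deviated together with r of -0.0031, 0.036 and -0.024, and other pairs of a BMP9 and a control array with -0.0593 to 0.0575. No strong shared deviation showed by number. The labels name no pairing, and these values cannot settle whether the numbers pair the samples.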
